A study of Mus musculus with 12 samples.

Results

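Myelin galactolipids and gap junctions between glial cells were followed through 6 transcripts in the dorsal hippocampus of mice: the galactolipid enzymes Ugt8a, Fa2h, Gal3st1 and Cers2 and the connexins Gjb1 and Gjc3. They were picked by symbol as the oligodendrocyte genes of these functions, with it already known from the same libraries that tau injection went with lower myelin transcripts, Gjb1 among them, in mice fed control chow. They are 6 of the 24985 rows of the count table, and 6 of 6 were among the 14742 genes that passed the filter on low counts. The comparison of those mice is therefore given here as a description, without a test.

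The study asked whether dietary acetate alters the response to pathological tau. The right dorsal hippocampus of C57Bl6/J wild-type mice, labelled male and 6 months old at surgery, received 1 µg of AD tau (sarkosyl-insoluble tau purified from human Alzheimer's disease brain) or PBS. The mice then ate control chow or chow with 5% sodium acetate, and the injected hippocampus was taken 6 months after surgery, after behavioral testing. The groups, of 3 mice each, are called Tau acetate, Tau control, PBS acetate and PBS control, and all 12 mice had surgery and behavioral testing in common. The labels name TestDiet for the control chow and LabDiet for the base of the acetate chow. The study's methods describe the control as matched in calories and give TestDiet as the manufacturer. Acetate and any difference in base diet that remained cannot be told apart. The model seeds tau at 1 site and carries no transgene.

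Oligodendrocytes wrap axons in a membrane that is unusually rich in galactosylceramide and its sulfated form, sulfatide. Their head groups are added to ceramides with very long and often 2-hydroxylated acyl chains, and both lipids help to hold the paranodal junction and the compacted sheath together. Oligodendrocytes are also coupled, to each other, across the layers of their own sheath and to astrocytes, through channels built from connexins. In bulk tissue, fewer oligodendrocytes and less RNA per oligodendrocyte cannot be told apart, and the comparisons below are of RNA shares in tissue.

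Ugt8a encodes the galactosyltransferase that makes galactosylceramide and lies on the minus strand of chromosome 3 (125865271 to 125938619; GRCm38, GENCODE M21). Fa2h, the fatty acid 2-hydroxylase that supplies the hydroxylated chains, lies on the minus strand of chromosome 8 (111345135 to 111393824). Gal3st1, the sulfotransferase that turns galactosylceramide into sulfatide, lies on the plus strand of chromosome 11 (3983636 to 3999326). Cers2, the ceramide synthase for very long chains, which other tissues use too, lies on the plus strand of chromosome 3 (95314791 to 95323599). Gjb1, which encodes connexin 32, lies on the plus strand of chromosome X (101376378 to 101385629). Gjc3, which encodes connexin 29, lies on the minus strand of chromosome 5 (137953461 to 137963098). All 6 are protein-coding, the reads were counted over their exons, and none shares exon sequence with another gene on its strand.

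Because the 6 transcripts moved together across mice (below), the sequence in front of their start sites was read from RefSeq, GRCm38.p6. The RefSeq table held 11 start-site windows, for 5 of the 6 genes, and no entry for Fa2h. The 3 stretches printed differ in kind: a GC-rich one (Ugt8a), the Gjb1 window with the most matches, and a Gjc3 window with few. Each is the 250 bases before the start site, 5′ to 3′ on the gene's own strand, and capitals mark matches on either strand to any of CTGGNAC (the core bound by MYRF), ACAAAG and ACAATG (SOX cores), CAGCTG (an E-box), GGGCGG (Sp1), CCAAT and TATAAA, where overlapping matches run together. Ugt8a is at chr3:125938653-125938902, minus strand; Gjb1 at chrX:101383482-101383731, plus strand; Gjc3 at chr5:137963099-137963348, minus strand.
Ugt8a: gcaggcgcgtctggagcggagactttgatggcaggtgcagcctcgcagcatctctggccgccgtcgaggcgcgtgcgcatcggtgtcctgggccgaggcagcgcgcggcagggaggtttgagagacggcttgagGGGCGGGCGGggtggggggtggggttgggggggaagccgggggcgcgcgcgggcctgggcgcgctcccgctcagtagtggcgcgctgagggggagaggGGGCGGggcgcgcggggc
Gjb1: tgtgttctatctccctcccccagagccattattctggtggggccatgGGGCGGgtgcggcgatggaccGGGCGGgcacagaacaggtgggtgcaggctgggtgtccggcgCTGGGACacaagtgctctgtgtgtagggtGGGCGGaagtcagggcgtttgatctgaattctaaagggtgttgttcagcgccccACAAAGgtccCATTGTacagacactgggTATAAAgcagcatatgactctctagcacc
Gjc3: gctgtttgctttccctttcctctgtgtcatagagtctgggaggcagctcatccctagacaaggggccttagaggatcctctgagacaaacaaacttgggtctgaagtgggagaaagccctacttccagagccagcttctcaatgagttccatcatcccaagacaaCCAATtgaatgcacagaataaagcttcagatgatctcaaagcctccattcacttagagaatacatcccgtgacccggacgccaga
The Ugt8a stretch held GGGCGG with its first base at positions -116, -112 and -18 from the start site, the first pair overlapping. The Gjb1 stretch held CTGGNAC at -140, ACAAAG at -57, ACAATG on the opposite strand at -47, TATAAA at -29 and GGGCGG at -203, -182 and -111. The Gjc3 stretch held CCAAT at -85. The printed stretches are parts of windows of 300 bases, and windows of the same gene can overlap. Of the 11 windows of these genes, 2 held CTGGNAC, 2 ACAAAG, 3 ACAATG, 1 CAGCTG, 3 GGGCGG, 8 CCAAT and 1 TATAAA. Of 32851 windows of that length in the table, 19.3% held CTGGNAC, 18.7% ACAAAG, 12.6% ACAATG, 16.3% CAGCTG, 35.7% GGGCGG, 37.4% CCAAT and 13.6% TATAAA. These matches describe letters and not binding.

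The libraries held 12983233 to 20218340 counts, with scaling factors of 0.990 to 1.01. The 6 transcripts had between 102 counts (Gal3st1 in 1 mouse) and 1619 counts (Gjc3 in 1 mouse), so that counting error alone was at most 9.90% of a value for Gal3st1, 8.16% for Gjb1 and 5.02% for the others. Although the mice are labelled male, Xist, the transcript of the inactive X chromosome, was at 920 to 1340 CPM (counts normalized to TMM-scaled library size) in all 12 mice and 8 Y-linked genes had 0 counts, in each group alike. The 11 transcripts of structural myelin proteins summed to 4748 to 9766 CPM, so oligodendrocyte RNA was plentiful in every library. The Schwann cell markers summed to 129 to 166 CPM over the 12 mice (135 to 166 in PBS control, 131 to 158 in PBS acetate, 129 to 141 in Tau control and 134 to 162 in Tau acetate). Of that list Prx, Ncmap and Pmp2, genes of peripheral myelin, were below the filter, and Drp2, Egr2 and Sox10 (which oligodendrocytes also express) were tested. Drp2 alone of these 3 was called by edgeR, higher in PBS acetate than in PBS control by a log2 fold change of 0.26 (SE 0.06, adjusted p = 0.0380), a call that was lost without PBS control replicate 3 or PBS acetate replicate 1 or 2. The part of this list in the values of the 6 transcripts was not tested. One PBS control mouse, replicate 2, stood apart in markers of the thalamus, which lies beneath the hippocampus: its 6 markers summed to 218 CPM, against 69.2 and 108 CPM in the other PBS control mice. The sums were 50.9 to 61.6 CPM in PBS acetate, 47.4 to 74.4 in Tau control and 48.3 to 82.8 in Tau acetate. All PBS control mice thus lay above all PBS acetate mice. The median log2 fold change of the 6 was -1.15 for tau on the control diet and -0.62 for acetate without tau. EdgeR called 0 of 6 in either comparison, and DESeq2 called 1 for acetate without tau. The part of replicate 2 in the results was not tested beyond leaving that mouse out, and that of the thalamus list was not tested. Nothing in the labels ties these mice to separate litters or cages. The p-values of the main edgeR and DESeq2 fits rest on the spread between mice within groups of 3. That spread was estimated jointly over all 12 mice, with information shared across genes.

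Per kilobase of exon, the PBS control level was 18.4 ± 2.81 CPM for Cers2, 17.9 ± 1.85 for Gjc3, 16.8 ± 1.82 for Ugt8a, 16.3 ± 1.38 for Fa2h, 11.6 ± 1.84 for Gjb1 and 5.36 ± 0.55 for Gal3st1 (SD, n = 3). The first 4 of these neighbours differed by less than their spread. Gjb1 lay below them and Gal3st1 below Gjb1 by more than the SD.

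**Figure D1:**
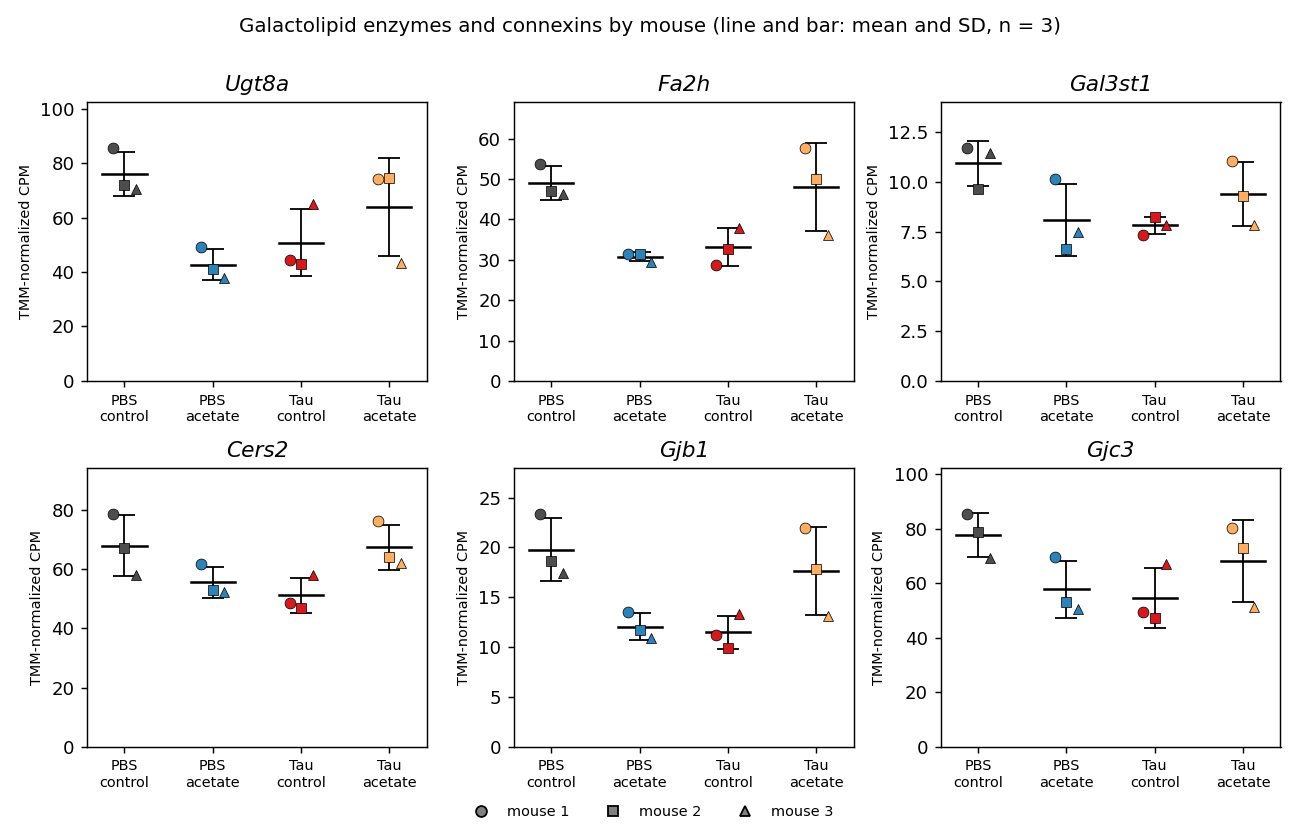
TMM-normalized counts (CPM, y axis, from 0) of each of the 6 genes in every mouse, by group (x axis); symbols are the 3 mice of a group, and the line and bar are their mean and SD. For Ugt8a, Fa2h and Gjb1 the PBS control mice all lie above the PBS acetate and Tau control mice. For Cers2 the PBS control mice overlap every group, and the Tau acetate mice, at 62.1 to 76.1 CPM, lie above PBS acetate and Tau control.

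The galactosyltransferase Ugt8a was at 85.5, 71.9 and 70.6 CPM in the PBS control mice, 49.1, 40.9 and 37.9 in PBS acetate, 44.4, 43.1 and 65.0 in Tau control and 74.0, 74.7 and 43.3 in Tau acetate. The PBS control mice were all above the PBS acetate and Tau control mice. In the Tau acetate group, 2 mice were at the PBS control level and the third was at the level of Tau control.

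The hydroxylase Fa2h was at 53.8, 47.0 and 46.3 CPM in PBS control, 31.5, 31.5 and 29.5 in PBS acetate, 28.6, 32.8 and 38.0 in Tau control and 57.7, 50.03 and 36.2 in Tau acetate. Every Tau acetate mouse was above every PBS acetate mouse. PBS acetate had the tightest spread of any group and gene here, with a coefficient of variation of 3.81%.

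The sulfotransferase Gal3st1, the least abundant, was at 11.7, 9.65 and 11.4 CPM in PBS control, 10.1, 6.65 and 7.47 in PBS acetate, 7.36, 8.22 and 7.86 in Tau control and 11.1, 9.32 and 7.84 in Tau acetate. Tau control lay wholly below PBS control, and the other groups overlapped both. The ceramide synthase Cers2 was at 78.5, 67.0 and 57.9 CPM in PBS control, 61.5, 52.8 and 52.2 in PBS acetate, 48.5, 46.8 and 58.0 in Tau control and 76.1, 63.9 and 62.1 in Tau acetate. For Cers2 it was the Tau acetate mice that stood clear, above all PBS acetate and all Tau control mice, while PBS control overlapped every group.

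The connexin gene Gjb1 was at 23.3, 18.6 and 17.4 CPM in PBS control, 13.5, 11.8 and 10.9 in PBS acetate, 11.3, 9.95 and 13.3 in Tau control and 21.9, 17.8 and 13.1 in Tau acetate. Both PBS acetate and Tau control lay wholly below PBS control, with Tau acetate overlapping all 3. Its highest mouse had 2.35 times the CPM of its lowest, the widest range of the 6 genes. Gjc3 was at 85.4, 78.8 and 69.3 CPM in PBS control, 69.7, 53.0 and 50.7 in PBS acetate, 49.5, 47.3 and 67.1 in Tau control and 80.2, 72.8 and 51.3 in Tau acetate. Only Tau control lay wholly below PBS control for Gjc3.

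Within groups the same mice tended to be high or low for all 6 genes. PBS control replicate 1 was the highest of its group for 6 of 6 genes and Tau acetate replicate 3 the lowest of its group for 6 of 6. Tau control replicate 3 and PBS acetate replicate 1 were each the highest of their group for 5 of 6.

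On the control diet, all 6 transcripts had lower values after tau than after PBS, which is what was known when the genes were chosen. The log2 fold changes (SE) were -0.59 (0.24) for Ugt8a, -0.57 (0.15) for Fa2h, -0.49 (0.16) for Gal3st1, -0.41 (0.12) for Cers2, -0.79 (0.18) for Gjb1 and -0.51 (0.20) for Gjc3, with a median of -0.54 beside a median of -0.000856 over all genes. For 5 of the 6 the mice did not overlap, the exception being Cers2; over all genes 6.84% were lower without overlap, and edgeR's quasi-likelihood test called 0.0136% lower at an adjusted p below 0.1. Since these values guided the choice, nothing further is read from them.

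On the acetate diet the same injection contrast, in 6 other mice, had the opposite sign for all 6 transcripts, but none passed the test at an adjusted p below 0.1. Tau acetate exceeded PBS acetate by a log2 fold change of 0.64 (SE 0.15) for Fa2h, whose adjusted p was 0.176 (edgeR's quasi-likelihood test, adjusted by Benjamini-Hochberg over all 14742 genes). The differences were 0.59 (SE 0.24, adjusted p = 0.442) for Ugt8a, 0.56 (SE 0.17, adjusted p = 0.277) for Gjb1, 0.28 (SE 0.12, adjusted p = 0.442) for Cers2, 0.24 (SE 0.20, adjusted p = 0.743) for Gjc3 and 0.23 (SE 0.16, adjusted p = 0.653) for Gal3st1. The median over the 6 was 0.42, beside -0.00354 over all genes. No member was called by edgeR, where 0.0882% of all genes were called higher; 4 had an unadjusted p below 0.05 (5.5% of all genes did, on the higher side), and DESeq2's Wald test called 1, Fa2h, with an adjusted p of 0.00252 (0.556% of all genes). Mice of the groups did not overlap for 2, Fa2h and Cers2, where 7.51% of all genes were higher without overlap. The result rested on Tau acetate replicate 3: without it edgeR called 2, Fa2h with an adjusted p of 0.00435 and Gjb1 with 0.0783.

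In PBS-injected mice, the acetate diet was accompanied by lower Ugt8a, Fa2h and Gjb1. Relative to PBS control, PBS acetate changed by -44.0% for Ugt8a (log2 fold change -0.84, SE 0.24, edgeR adjusted p = 0.0895), by -37.3% for Fa2h (-0.67, SE 0.15, adjusted p = 0.0379) and by -39.3% for Gjb1 (-0.72, SE 0.17, adjusted p = 0.0408). Gal3st1, Cers2 and Gjc3 did not pass the test, with log2 fold changes of -0.45 (SE 0.16, adjusted p = 0.113), -0.29 (SE 0.12, adjusted p = 0.191) and -0.43 (SE 0.20, adjusted p = 0.264) in the same edgeR fit. Thus 3 of 6 were called lower, where 4.85% of all genes were called lower, and the same 3 were those whose mice did not overlap, where 13.2% of all genes were lower without overlap. The median was -0.56, beside 0.00416 over all genes. An unadjusted p below 0.05 was reached by 5 of 6 (10.8% of all genes, on the lower side), and DESeq2 called the same 3 (5.44% of all genes lower). This comparison shares its PBS control mice with the one known at the choice of genes, so those mice enter both sets of values. High values in those mice would lower both sets of fold changes. The calls and shares given here are therefore not independent of the choice of genes.

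These calls were sensitive to single mice. EdgeR's quasi-likelihood fit called 0 of the 6 without PBS control replicate 1 or without PBS acetate replicate 2, and 1, Gjb1, without PBS control replicate 3. The Gjb1 call held in 10 of the 12 fits that each left out 1 mouse, and was lost without PBS control replicate 1 or PBS acetate replicate 2. The Fa2h call held in 8 and was lost also without PBS control replicate 3 or PBS acetate replicate 1. The Ugt8a call held in 5 and was lost without any 1 of the 6 mice compared and without Tau control replicate 1. Gal3st1, not called with all mice, was called without PBS acetate replicate 1 (adjusted p = 0.0742) and without Tau acetate replicate 1 (adjusted p = 0.0996). Leaving out the mouse high in thalamus markers gave log2 fold changes of -0.87 for Ugt8a, -0.70 for Fa2h and -0.76 for Gjb1 (edgeR adjusted p = 0.138, 0.0631 and 0.0616).

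In tau-injected mice the acetate diet went with higher values of all 6 transcripts, none of which passed edgeR's test. Tau acetate exceeded Tau control by a log2 fold change of 0.63 (SE 0.18, adjusted p = 0.247) for Gjb1, 0.54 (SE 0.15, adjusted p = 0.258) for Fa2h, 0.40 (SE 0.12, adjusted p = 0.276) for Cers2, 0.34 (SE 0.24, adjusted p = 0.666) for Ugt8a, 0.32 (SE 0.20, adjusted p = 0.617) for Gjc3 and 0.27 (SE 0.16, adjusted p = 0.569) for Gal3st1. No member was called, where 0.0407% of all genes were called higher; 3 had an unadjusted p below 0.05 (5.47% of all genes), and DESeq2 called those 3, Fa2h, Cers2 and Gjb1, with adjusted p of 0.0261, 0.0658 and 0.0556 (0.536% of all genes higher). Mice did not overlap for Cers2 alone of the 6, where 6.66% of all genes were higher without overlap. The median was 0.37, beside 0.000790 over all genes. Without Tau acetate replicate 3, edgeR called Fa2h and Gjb1 (adjusted p = 0.0140 and 0.0498). The Tau control mice are shared with the comparison known at the choice of genes. Low values in those mice would raise the fold changes given here, so these are not independent of that choice.

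**Figure D2:**
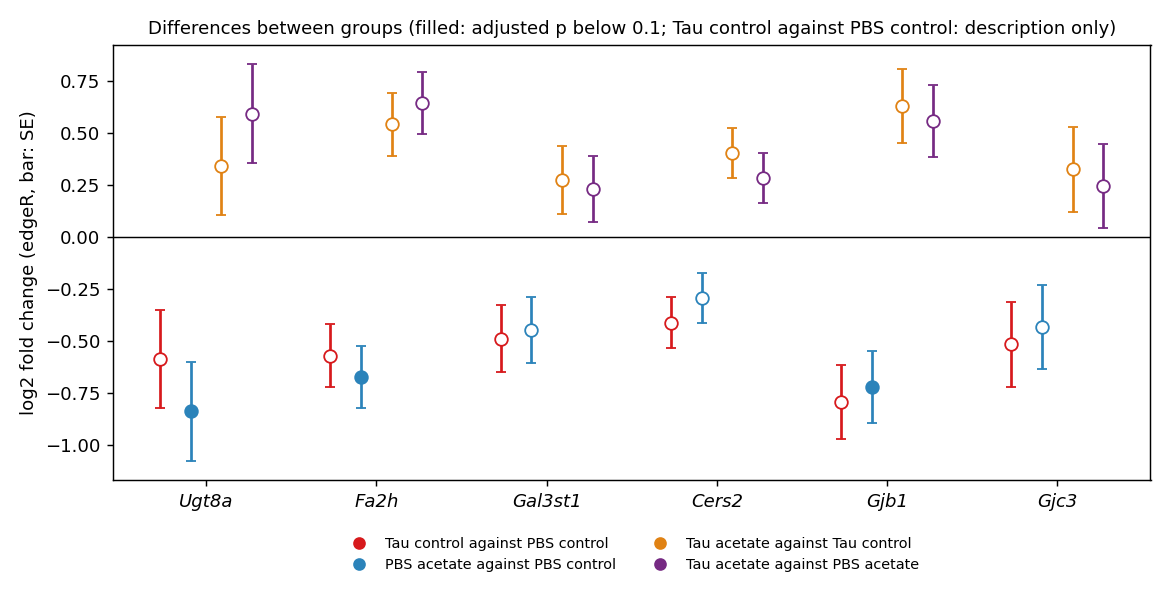
Log2 fold change (y axis, edgeR fit over 12 mice; bars are standard errors) of each gene (x axis) in the 4 comparisons of 2 groups; filled points passed an adjusted p below 0.1, and the points of Tau control against PBS control are a description without a test. Points for tau on the control diet and for acetate without tau lie below 0, and points for acetate with tau and for tau on the acetate diet lie above 0, with only Ugt8a, Fa2h and Gjb1 filled, for acetate without tau.

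The difference between the acetate effects with and without tau (interaction) contains the difference between Tau control and PBS control mice that was known when the genes were chosen, and it is described here without a test. It was positive for 6 of 6. On the log2 scale it was 1.35 (SE 0.25) for Gjb1, 1.21 (SE 0.21) for Fa2h, 1.18 (SE 0.34) for Ugt8a, 0.76 (SE 0.29) for Gjc3, 0.72 (SE 0.23) for Gal3st1 and 0.69 (SE 0.17) for Cers2. The median was 0.97, beside -0.00526 over all genes, and lay between 0.84 and 1.15 when each mouse in turn was left out.

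The 6 transcripts were set beside the structural proteins of the myelin sheath, made by the same cells. The 11 structural myelin genes had median log2 fold changes of -0.62 for tau on the control diet, 0.45 for tau on the acetate diet, -0.52 for acetate without tau and 0.52 for acetate with tau, where the medians of the 6 were -0.54, 0.42, -0.56 and 0.37. In acetate without tau, 3 of 11 passed the test, all lower: Cldn11, which seals the sheath, at -0.65 (SE 0.19, edgeR adjusted p = 0.0934), Mobp at -0.73 (SE 0.21, adjusted p = 0.0981) and Ermn at -0.75 (SE 0.22, adjusted p = 0.0982). Each of the 3 calls held in 2 of the 12 fits with 1 mouse left out, and was lost without any 1 of the 6 mice compared and without 4 of the 6 tau-injected mice. DESeq2 called 6 of 11 there. For tau on the acetate diet and acetate with tau edgeR called 0 of 11, with 6 and 8 at an unadjusted p below 0.05 and 0 by DESeq2.

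Counted per 1000 reads of the 11 structural myelin genes in the same mouse, the 6 transcripts varied less: the highest mouse had 1.21 to 1.44 times the ratio of the lowest, against 1.68 to 2.35 times for CPM. Over the 12 mice Ugt8a ranged from 7.49 to 10.7, Fa2h from 4.80 to 6.52, Gal3st1 from 1.14 to 1.64, Cers2 from 7.66 to 10.99, Gjb1 from 1.98 to 2.39 and Gjc3 from 8.72 to 11.01. Gjb1, which had the widest range in CPM, had the narrowest ratio.

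What remained after that division had different signs in different genes. For acetate without tau, the ratio was lower for Ugt8a (7.69 ± 0.27 in PBS acetate and 9.01 ± 0.30 in PBS control, SD, n = 3) and for Gjb1 (2.18 ± 0.12 and 2.33 ± 0.05). It was higher for Cers2 (10.1 ± 0.83 and 8.01 ± 0.33) and for Gjc3 (10.4 ± 0.47 and 9.23 ± 0.52). In these 4 genes the mice did not overlap, which gives an exact two-sided permutation p of 0.1, the smallest that 3 mice against 3 can give, and Fa2h and Gal3st1 overlapped. With tau, Gjb1's ratio was higher in Tau acetate (2.28 ± 0.10) than in Tau control (2.11 ± 0.11), and Gjc3's was lower (8.85 ± 0.11 and 9.99 ± 0.89), again without overlap and with an exact permutation p of 0.1. Gjc3's ratio was also lower in Tau acetate than in PBS acetate (exact permutation p = 0.1). Of 18 such tests, 7 gave 0.1, which became 0.257 after Benjamini-Hochberg adjustment, so no ratio passed and the design allowed none to. On the control diet, the Tau control ratio was higher for Cers2 (9.40 ± 0.10 against 8.01 ± 0.33) and lower for Gjb1 (2.11 ± 0.11 against 2.33 ± 0.05) without overlap, given without a test.

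**Figure D3:**
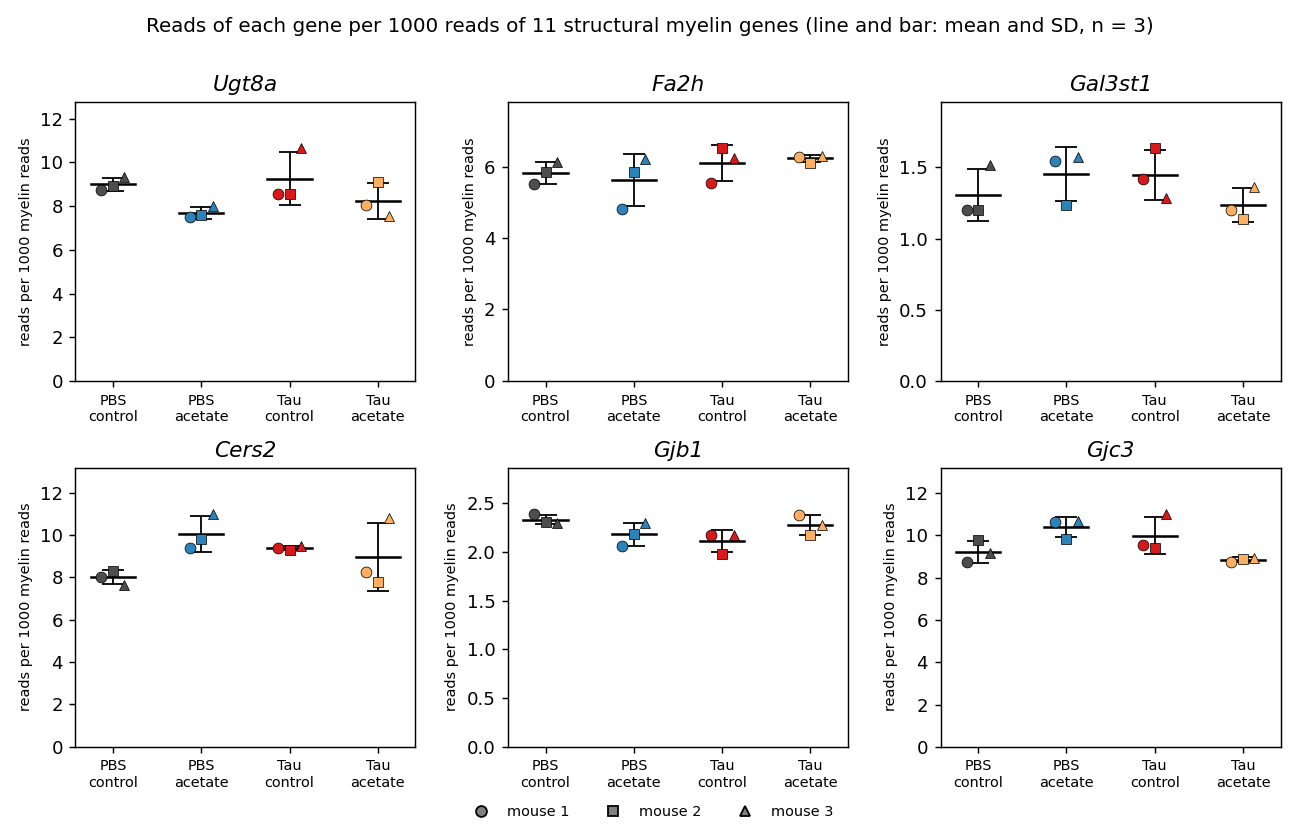
Counts of each gene per 1000 counts of the 11 structural myelin genes in the same mouse (y axis, from 0), by group (x axis); symbols are the 3 mice of a group, and the line and bar are their mean and SD. The panels are flatter than those of CPM: Gjb1 stays between 1.98 and 2.39 in all 12 mice, while Cers2 is higher in PBS acetate and Tau control than in PBS control.

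Across the 12 mice the log2 CPM of the 6 transcripts was correlated in all 15 pairs, with Pearson r from 0.741 to 0.946 and a median of 0.852. With group means removed, r was 0.530 to 0.957. With the summed structural myelin level, r was 0.986 for Gjb1, 0.948 for Gjc3, 0.943 for Fa2h, 0.939 for Ugt8a, 0.909 for Cers2 and 0.865 for Gal3st1. These correlations share the 12 libraries and their group differences and are descriptions.

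The genes whose log2 CPM followed each transcript most closely over the 12 mice were picked by the highest r. For Ugt8a they were Pip4k2a (r = 0.991), Ermn (0.981) and Magt1 (0.965), and for Fa2h they were Nkain1 (0.969), Mtmr10 (0.967) and Tppp3 (0.954). For Gal3st1 they were Rcbtb1 (0.916), Pdlim1 (0.916) and Fgd3 (0.914), and for Cers2 they were Daam2 (0.975), Map7 (0.964) and Pde8a (0.959). For Gjb1 they were the myelin genes Mbp (0.986) and Cldn11 (0.984) and Plekhb1 (0.984). For Gjc3 they were Otud7b (0.964), Sox2ot (0.963) and Tmem88b (0.961).

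The rest of the lipid route was followed in 37 other genes of ceramide, galactolipid and sulfatide synthesis, transport and breakdown, of which 33 were tested. Cers1 had no count, and Sptlc3, Cers3 and Elovl3 were below the filter. For acetate without tau, 5 of 33 were called lower. The 5 were Elovl4, Elovl6 and Elovl7, which elongate fatty acids, Degs1, which desaturates dihydroceramide, and Sptssb, a small subunit of the enzyme that begins sphingolipid synthesis. Their log2 fold changes were -0.21 (SE 0.06) for Elovl4, -0.28 (SE 0.07) for Elovl6, -0.49 (SE 0.14) for Elovl7, -0.27 (SE 0.06) for Degs1 and -1.12 (SE 0.37) for Sptssb, with edgeR adjusted p from 0.0251 (Degs1) to 0.0867 (Sptssb). The Degs1 call held in 11 of 12 fits with 1 mouse left out, failing without PBS acetate replicate 2, and Elovl6 in 8, failing without PBS control replicate 1 or 3 or PBS acetate replicate 1 or 2. Elovl4 and Elovl7 held in 7, failing without those 4 mice or PBS acetate replicate 3. Sptssb also held in 7, failing without PBS control replicate 2 or 3 or any 1 PBS acetate mouse.

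The 33 genes as a list lay near 0 in each comparison. Their median log2 fold change was -0.05 for tau on the control diet, 0.02 for tau on the acetate diet, -0.09 for acetate without tau, -0.01 for acetate with tau and 0.07 for the interaction. By edgeR 0 of 33 passed for tau on the acetate diet or for acetate with tau, with 0 and 6 at an unadjusted p below 0.05 and 0 called by DESeq2. Sptssb, at 2.12 CPM in PBS control, had the largest interaction of this list, 1.37 (SE 0.53). Mal, a myelin proteolipid that binds galactolipids and is in both lists, had the largest difference for acetate with tau, 0.52 (SE 0.20, adjusted p = 0.406).

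The connexins on the astrocyte side were looked at for their role as partners, after their values were seen. Gja1, which encodes connexin 43, averaged 193 ± 11.8 CPM in PBS control, 202 ± 5.34 in PBS acetate, 190 ± 4.07 in Tau control and 206 ± 5.51 in Tau acetate (SD, n = 3). Gjb6, which encodes connexin 30, averaged 38.7 ± 4.33, 40.9 ± 0.97, 40.9 ± 3.12 and 43.6 ± 5.46 CPM in the same order. Neither passed the test in any comparison, and their log2 fold changes lay between -0.02 and 0.12. Of 21 other connexin and pannexin genes 10 were tested, and Gjc1 had the largest difference of that list for tau on the acetate diet, 0.55 (SE 0.25, adjusted p = 0.458).

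The oligodendrocyte lineage was covered by lists of 8 factors and 8 precursor markers. The factors had median log2 fold changes of -0.49 for tau on the control diet, 0.29 for tau on the acetate diet, -0.42 for acetate without tau and 0.35 for acetate with tau. Nkx6-2, a factor of maturing oligodendrocytes, was the factor called: lower for acetate without tau at -0.48 (SE 0.14, edgeR adjusted p = 0.0667). The call held in 7 of 12 fits, failing without any 1 PBS control mouse or PBS acetate replicate 2 or 3. Its interaction was 1.07 (SE 0.21), and Myrf, the regulator of myelin gene transcription, had the largest of the factors, 1.10 (SE 0.26).

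The precursor markers did not share these medians, which were 0.07, 0.10, 0.03 and 0.06 in the same order. For acetate without tau, Gpr17, of committed precursors, was lower at -0.31 (SE 0.09, edgeR adjusted p = 0.0483) and Cspg4, of cycling precursors, higher at 0.29 (SE 0.09, adjusted p = 0.0767). Each of the 2 calls held in 7 of 12 fits. Gpr17 failed without PBS control replicate 1 or 3 or any 1 PBS acetate mouse, and Cspg4 without any 1 PBS control mouse or PBS acetate replicate 1 or 2.

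Markers of other cells and regions moved with some of the same groups. The 3 ependymal markers, from the lining of the ventricle beside the hippocampus, summed to 26.2 to 27.2 CPM in PBS control, 10.7 to 12.0 in PBS acetate, 8.22 to 17.8 in Tau control and 14.9 to 33.6 in Tau acetate. For acetate without tau 3 of 3 were called lower, led by Tmem212 at a log2 fold change of -1.58 (SE 0.41, edgeR adjusted p = 0.0457). The Foxj1 call held in 10 of the 12 fits with 1 mouse left out, that of Tmem212 in 9 and that of Ccdc153 in 4, and all of them were lost without PBS acetate replicate 2. None of the 3 genes is at 0 in a group mean. The 5 choroid plexus markers, from the same ventricle, summed to 86.5 to 119 CPM in PBS control, 67.4 to 80.2 in PBS acetate, 95.0 to 200 in Tau control and 78.7 to 476 in Tau acetate. In Tau acetate, replicate 3 alone was at 476 CPM, with replicates 1 and 2 at 78.7 and 81.6. Replicate 3 is also the mouse that was lowest of its group for all 6 transcripts and without which edgeR called Fa2h and Gjb1. The part of either list in the values of the 6 transcripts was not tested.

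Hippocampal fields shifted as well for acetate without tau and, in their sums, for tau on the control diet. The 5 CA1 markers summed to 452 to 589 CPM in PBS control and 718 to 946 in PBS acetate, with 4 of 5 called higher. The 5 CA3 markers summed to 238 to 286 and 115 to 211 CPM, with 3 of 5 called lower. Of all 14742 genes, edgeR called 1303 in that comparison in either direction, and 4.85% lower. In Tau control the sums were 606 to 767 CPM for CA1 and 187 to 217 for CA3, without overlap with PBS control in either list. For tau on the control diet edgeR and DESeq2 called 0 of 5 in either list, with 3 of 5 (CA1) and 1 of 5 (CA3) at an unadjusted p below 0.05. In Tau acetate the sums were 653 to 935 and 137 to 213 CPM. For tau on the acetate diet or acetate with tau, 0 of 5 were called by edgeR or DESeq2 in either list. There 1 of 5 (CA3, tau on the acetate diet) had an unadjusted p below 0.05. The 7 calls held in 7 to 9 of the 12 fits with 1 mouse left out, and all were lost without PBS control replicate 3, PBS acetate replicate 1 or PBS acetate replicate 2. Whether the dissected fields bear on the oligodendrocyte transcripts was not tested.

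Some neuronal and astrocyte markers also differed by diet in PBS-injected mice. The 6 neuronal markers summed to 6727 to 7346 CPM in PBS control, 5753 to 6565 in PBS acetate, 6763 to 6880 in Tau control and 5741 to 6373 in Tau acetate, without overlap between the diets after either injection. EdgeR called 2 of 6 lower for acetate without tau, the synaptic gene Snap25 at a log2 fold change of -0.40 (SE 0.08, adjusted p = 0.0157) and Slc17a7, a vesicular glutamate transporter, at -0.22 (SE 0.07, adjusted p = 0.0749). The list did not move as one there: 3 of the 6 lay below 0 and 3 above, with a median of -0.06. DESeq2 called 3 of 6 there. For acetate with tau 5 lay below 0 and 1 above, with a median of -0.07. In that comparison edgeR called 0 of 6, with 2 at an unadjusted p below 0.05, and DESeq2 called 2. Snap25 had the largest difference of the list, -0.28 (SE 0.08, edgeR adjusted p = 0.211). For acetate without tau, edgeR's Snap25 call was lost without PBS acetate replicate 2, and that of Slc17a7 without PBS control replicate 1 or 3 or PBS acetate replicate 1 or 2. The 8 astrocyte markers summed to 4793 to 5424 CPM over all mice. With acetate and no tau 3 of 8 were called, the glutamate transporter Slc1a3 higher at 0.23 (SE 0.06, edgeR adjusted p = 0.0355), Aldoc, an enzyme of glycolysis, higher at 0.20 (SE 0.06, adjusted p = 0.0676) and the water channel Aqp4 lower at -0.20 (SE 0.06, adjusted p = 0.0726). The Slc1a3 call was lost without PBS control replicate 3 or PBS acetate replicate 1 or 2, the Aldoc call without any 1 PBS control mouse or PBS acetate replicate 1 or 2, and the Aqp4 call without PBS control replicate 2 or 3 or any 1 PBS acetate mouse. The 6 microglial markers summed to 373 to 458 CPM, and for acetate without tau 0 of 6 were called by edgeR or DESeq2, with 0 at an unadjusted p below 0.05. For tau on the acetate diet their median log2 fold change was 0.20, with 5 above 0 and 1 below. There 4 had an unadjusted edgeR p below 0.05 (5.5% of all genes, on the higher side), and edgeR and DESeq2 called 0. For acetate with tau the median was 0.12, with 1 at an unadjusted p below 0.05 and 0 called by either. The part of these lists in the values of the 6 transcripts was not tested.

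**Figure D4:**
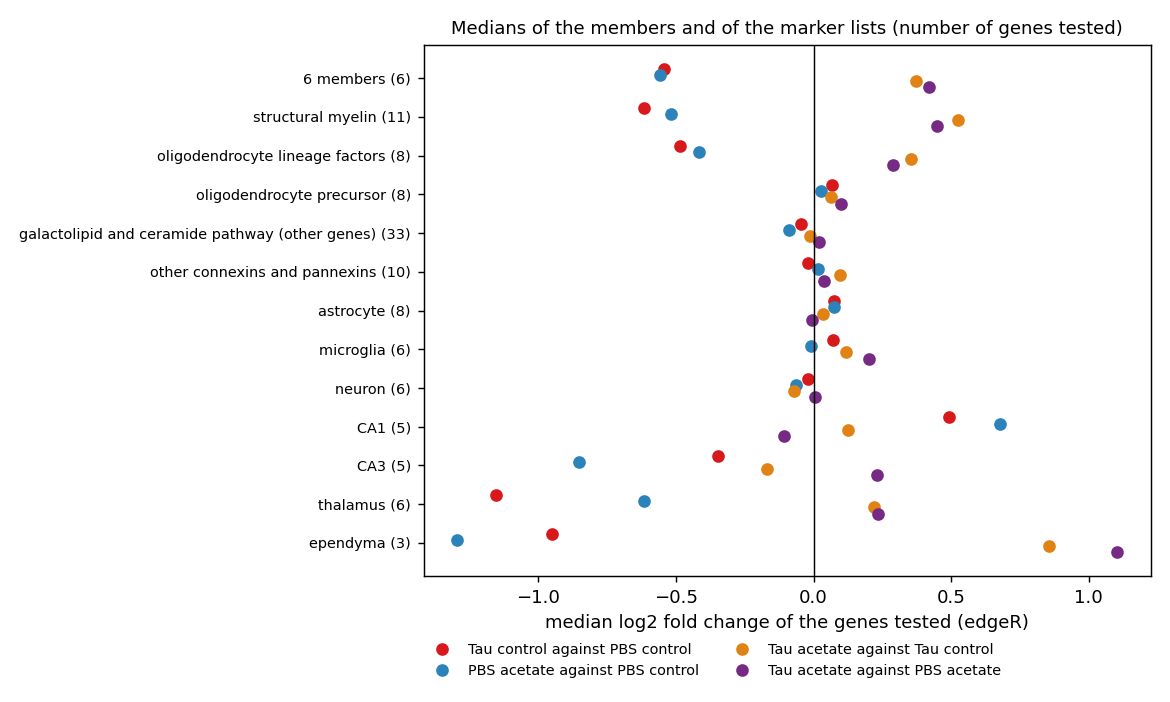
Median log2 fold change (x axis, edgeR) of the 6 genes and of each marker list (y axis, number of genes tested in parentheses) in the 4 comparisons of 2 groups. The 6 genes reach from -0.56 to 0.42 and structural myelin from -0.62 to 0.52, while precursor markers, the other lipid genes and the other connexins lie near 0. Ependymal markers reach from -1.30 to 1.10 and thalamus markers from -1.15 to 0.23.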

How the data were processed

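RNA from the injected dorsal hippocampus of 12 mice was sequenced after polyA selection. The authors aligned reads to GRCm38 with STAR 2.5.2a and counted them per gene, over exons on the reverse strand, with HTSeq 0.9.1; the submitters' notes also name SAMtools 1.1. They deposited raw counts, 1 column per mouse, and groups come from the sample titles. The counts were analysed in R 4.3.3 with edgeR 4.0.16: TMM scaling, filterByExpr (minimum count 10, minimum total 15), a robust quasi-likelihood fit with 1 mean per group over 12 mice (8 residual degrees of freedom), and Benjamini-Hochberg adjustment over 14742 genes, called at an adjusted p below 0.1, the threshold the study used for these data in its display. The common biological coefficient of variation was 7.25%. The code was tested on simulated counts. DESeq2 1.42.0, other filters, scaling and sets of mice were alternatives. Symbols were placed with GENCODE M21 (24534 of 24985 matched), and promoters come from RefSeq.

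The 6 genes and all marker lists were chosen with earlier results of these data known. The interaction was planned as a test but is given without one, because it contains the contrast that guided the choice. The text names the 6 genes, list genes that were called or had the largest change in their list, and the 3 genes best correlated with each of the 6 (log2 CPM, prior count 2). Replicate numbers in the titles did not pair mice: over 18 same-numbered pairs, deviations from group means correlated at -0.10 to 0.14, and 2 exceeded 0.1. No 2 mice agreed within sampling noise. Intervals and p-values cover these mice only, and library totals of 12983233 to 20218340 counts set the counting error. Some genes of the lists are not reported here.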

Additional observations from a re-analysis of the deposited data

How the results depend on the processing

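All 522 values of the 6 log2 fold changes under the 18 other settings (other scaling, filter, tool, samples, replicate block and threshold, and each mouse left out) had the sign of the values in the text. The 522 include tau on the control diet, which guided the choice of the genes, and the interaction, which contains it. They also include the other threshold, which leaves the fold changes as they were, so that its signs could not differ. Calls moved more. DESeq2 in place of edgeR called 1 of the 6 for tau on the acetate diet and 3 for acetate with tau, where edgeR called 0. Leaving out 1 mouse at a time, the number called ranged from 0 to 2 for tau on the acetate diet, 0 to 4 for acetate without tau and 0 to 2 for acetate with tau. The median log2 difference of the ratio to structural myelin for acetate without tau was 0.0480 and ranged from -0.0213 (without PBS acetate replicate 3) to 0.0778. For acetate without tau, Ugt8a had an adjusted p of 0.127 with the replicate block and 0.1296 without the filter, and Gal3st1 0.0963 with the block; the block changed no other call of the 6, and the numbers do not pair the mice. At an adjusted p below 0.05 the call of Ugt8a for acetate without tau was lost. The causes were not tested. Over all genes, edgeR called 2 for tau on the control diet (DESeq2 100, compared mice alone 35, block 9, adjusted p below 0.05 0), 20 for tau on the acetate diet (no filter 37, DESeq2 130, 0.05 0), 1303 for acetate without tau (0.05 541), 9 for acetate with tau (no filter 56, DESeq2 167, compared mice alone 2, 0.05 3) and 230 for the interaction (DESeq2 472, block 349, 0.05 43). Without 1 mouse the count for acetate without tau ranged from 15 to 1425. Calls of the 6 for tau on the control diet and for the interaction were not tabulated, since the first contrast guided their choice and the second contains it. With 3 mice a group, Gal3st1, at 102 to 223 counts, is the transcript most limited by depth.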
